A study of Mus musculus with 6 samples.

Results

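The genes described here are 10 members of the NF-kappa B system, measured by bulk RNA-seq in subcutaneous MC38 tumors. They were taken by name from the 33965 genes of the deposited table, and each of the 10 names matched 1 gene. The list holds 5 subunit genes (Nfkb1, Nfkb2, Rela, Relb and Rel) and 5 inhibitor genes (Nfkbia, Nfkbib, Nfkbie, Nfkbiz and Tnfaip3). MC38 cells, a line derived from a colon carcinoma of the mouse, were inoculated under the skin of C57BL/6 mice, which the study's methods describe as female and 6 weeks old at purchase. One group of 3 tumors came from mice given PBS as the vehicle control. The other group of 3 tumors came from mice given GB2, a prodrug in which the STING agonist MSA-2 is joined to artesunate, given intravenously at 10 mg/kg in the study's plan for MC38 tumors. The labels name no engineered allele, and the host mice kept their own immune cells.

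NF-kappa B is a family of dimeric transcription factors. The subunits share a Rel homology domain that binds DNA. RELA, RELB and c-REL also carry an activation domain, whereas p105 and p100, the products of Nfkb1 and Nfkb2, are processed to the DNA-binding proteins p50 and p52. In resting cells the dimers are held in the cytoplasm by inhibitor of kappa B proteins. The IKK kinase complex marks these inhibitors for degradation after signals from TNF, interleukin-1, Toll-like receptors or STING, and the dimers then enter the nucleus. Several genes of the system are themselves NF-kappa B targets, so that activation is followed by resynthesis of the inhibitor. The control lies largely in protein degradation and localization, which RNA levels do not measure.

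Because such feedback acts at promoters, the sequences just before the transcription start are shown for the members with a match to the kappa B consensus motif. RefSeq promoter windows on GRCm38.p6 were found for 7 members, and Nfkb1, Relb and Nfkbiz had no entry. The 250 bases before each start were searched on both strands, and overlapping matches were allowed. A match was present in 5 of the 7 members. Across the table, 7.25% of 32851 windows, or 8.23% of 27025 genes, held a match. Capitals mark the matched bases in the sequences below, each printed 5′ to 3′ on the strand of the gene. For Nfkb2 only 30 bases are shown, since the GENCODE annotation places that window inside an exon of a longer Nfkb2 transcript.
Nfkbia: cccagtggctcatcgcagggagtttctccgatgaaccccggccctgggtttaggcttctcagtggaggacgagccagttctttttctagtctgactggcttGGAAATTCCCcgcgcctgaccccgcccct
Nfkbie: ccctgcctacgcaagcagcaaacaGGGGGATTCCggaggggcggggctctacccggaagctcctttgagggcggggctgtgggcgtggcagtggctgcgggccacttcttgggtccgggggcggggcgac
Tnfaip3: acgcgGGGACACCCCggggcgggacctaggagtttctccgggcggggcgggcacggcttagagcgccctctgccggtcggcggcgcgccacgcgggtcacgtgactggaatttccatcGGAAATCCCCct
Rel: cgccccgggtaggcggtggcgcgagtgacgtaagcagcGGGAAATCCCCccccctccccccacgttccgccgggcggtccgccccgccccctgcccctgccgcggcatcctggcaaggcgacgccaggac
Nfkb2: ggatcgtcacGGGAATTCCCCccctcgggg

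These windows lie at chr12:55492648-55492777 on the minus strand for Nfkbia, chr17:45555570-45555699 on the plus strand for Nfkbie and chr10:19015411-19015540 on the minus strand for Tnfaip3. That of Rel lies at chr11:23770970-23771099 on the minus strand, and that of Nfkb2 at chr19:46304688-46304717 on the plus strand. The match began 29 bases before the start in Nfkbia, 106 in Nfkbie and 92 in Rel. Tnfaip3 had matches beginning at 125 and at 12 bases, and Nfkb2 at 39 and at 11 bases. Rela and Nfkbib had no match, which says only that these letters are not in this window. A match is a description of the sequence, and no binding was measured.

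**Figure D1:**
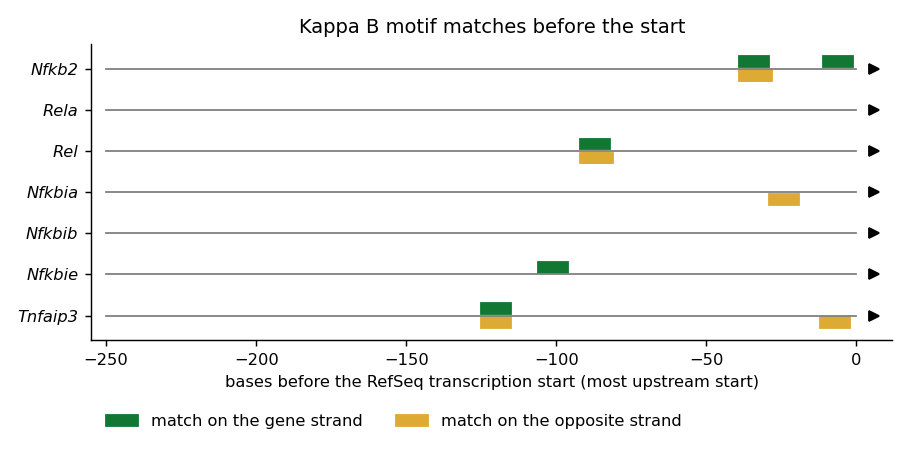
Positions of kappa B motif matches in the 250 bases before the most upstream RefSeq start of 7 members. The horizontal axis gives the distance from the start in bases, and boxes above or below each line are matches on the gene strand or on the opposite strand. Rela and Nfkbib have none, while the matches of Nfkbia and Nfkb2 lie within 39 bases of the start.

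Total estimated counts ran from 64764405 to 83690056 per tumor, and 1 read pair stands for about 4 counts. After a filter on low counts 19602 genes were tested, among them all 10 members. The limits for a call were those of the study's methods, an adjusted p below 0.05 and a change of 2-fold or more. No gene was called by edgeR's quasi-likelihood test (percent called 0 of all genes tested), whereas DESeq2 called 385 genes, or 1.96%. The epithelial markers Krt8, Krt18, Krt19, Epcam and Cldn7 summed to between 1.39 and 5.70 CPM (counts scaled by the TMM library size) over the 6 tumors, so these genes give little view of the labelled carcinoma cells. The labels do not say more about the separate tumors than their group and number, so the p values measure only the spread between these samples.

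None of the 10 members was called as changed in GB2 tumors. By edgeR's quasi-likelihood test the adjusted p values of the members ran from 0.761 to 0.975, and 0 of the 10 had an unadjusted p under 0.05, where 6.94% of all genes tested had one. DESeq2 also called 0 of the 10. In GB2 tumors 5 members had a higher and 5 a lower fitted level (6 and 4 when only library sizes were used, where Nfkb2 was higher), with a median log2 fold change of 0.04 against -0.02 for all genes tested. The log2 fold changes lay between -0.28 and 0.32. For 9 members the 95% interval of the fold change stayed within 2-fold in either direction. The exception was Relb, whose log2 interval of -1.03 to 0.49 reached past a 2-fold decrease. Over all genes tested the share within 2-fold was 42.1%, and no share was computed for genes at the members' own levels. A p above the limit does not show that the groups were alike, and the intervals give the changes that remain compatible with these tumors.

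**Figure D2:**
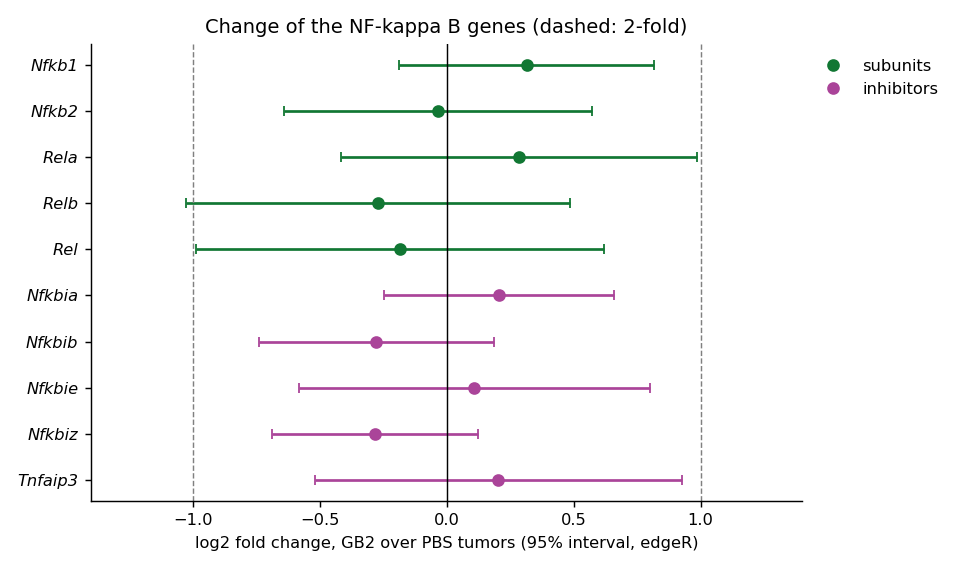
Log2 fold change of each member in GB2 over PBS tumors from edgeR, with its 95% interval, for 5 subunits and 5 inhibitors. Dashed lines mark 2-fold changes; every interval includes 0, and that of Relb alone crosses a dashed line.

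Rela (ENSMUSG00000024927) encodes p65, the principal activating subunit of the canonical pathway, and lies on chromosome 19 from 5687511 to 5698158 (plus strand) in the positions of the deposited table. Its level was 25.0, 52.6 and 54.9 CPM in PBS tumors 1, 2 and 3, and 53.3, 60.6 and 47.6 CPM in GB2 tumors 1, 2 and 3. PBS tumor 1 was far below the other 5 tumors, which overlapped. Its log2 fold change was 0.29 ± 0.30 (SE), with an adjusted p of 0.839 from edgeR, and moved to 0.017 with PBS tumor 1 left out. It was 0.43 with PBS tumor 2 and 0.48 with PBS tumor 3 left out.

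Nfkb1 (ENSMUSG00000028163), which encodes the p105 precursor of p50, the usual partner of RELA, lies on chromosome 3 from 135290416 to 135397308 (minus strand). It measured 36.7, 59.8 and 52.2 CPM in the PBS tumors and 68.5, 60.5 and 56.0 CPM in the GB2 tumors. PBS tumor 1 was again the lowest, and GB2 tumor 3 lay below PBS tumor 2, so that the groups overlapped. The log2 fold change of 0.32 ± 0.22 (SE) was the highest among the members, and the edgeR adjusted p was 0.779. It dropped to 0.15 without PBS tumor 1 and was 0.47 without PBS tumor 2.

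Nfkb2 (ENSMUSG00000025225) encodes p100, which serves as an inhibitor until it is processed to p52 in the alternative pathway. It lies on chromosome 19 from 46292759 to 46300824 (plus strand), and overlaps the gene models of Psd and 4833438C02Rik on the opposite strand. Whether counting used the strand is not given in the sources used here, so reads of these genes could be mixed. Nfkb2 measured 23.0, 40.2 and 35.4 CPM in the PBS tumors and 39.8, 28.9 and 27.6 CPM in the GB2 tumors. The lowest and the highest value both belonged to PBS tumors. Nfkb2 had a log2 fold change of -0.03 ± 0.26 (SE), whose sign depended on the tumors and on the scaling. Leaving out PBS tumor 2 gave 0.14 and PBS tumor 3 gave 0.03, and leaving out GB2 tumor 2 gave 0.04 and GB2 tumor 3 gave 0.07. Scaling by library sizes only gave 0.013.

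Relb (ENSMUSG00000002983) encodes the subunit that pairs with p52 in the alternative pathway and lies on chromosome 7 from 19340142 to 19363363 (minus strand). Its values were 9.77, 9.44 and 11.9 CPM in the PBS tumors, and 12.6, 7.38 and 5.78 CPM in the GB2 tumors. GB2 tumor 1 was the highest of all 6 tumors, and the other GB2 tumors were the lowest. Relb had a log2 fold change of -0.27 ± 0.32 (SE), which rested on single tumors. It was -0.65 with GB2 tumor 1 left out, -0.17 with GB2 tumor 2 and -0.049 with GB2 tumor 3 left out, and -0.16 with PBS tumor 3 left out.

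Rel (ENSMUSG00000020275) encodes c-REL, a subunit best known from lymphoid and myeloid cells, and lies on chromosome 11 from 23686847 to 23720970 (minus strand). It measured 12.3, 9.56 and 4.88 CPM in the PBS tumors, and 7.72, 8.30 and 7.56 CPM in the GB2 tumors. All 3 GB2 values fell inside the range of the PBS tumors. For Rel the log2 fold change was -0.18 ± 0.35 (SE), which turned to 0.13 without PBS tumor 1 and moved to -0.47 without PBS tumor 3.

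Among the inhibitors, Nfkbia (ENSMUSG00000021025) encodes inhibitor of kappa B alpha, which binds RELA-containing dimers and is quickly resynthesized after activation. It lies on chromosome 12 from 55536195 to 55539432 (minus strand). Its level was 16.3, 16.3 and 13.2 CPM in the PBS tumors and 19.4, 16.9 and 16.6 CPM in the GB2 tumors. The groups did not overlap, with the GB2 tumors higher, but the gap between PBS tumor 2 and GB2 tumor 3 was small beside the SD of 1.80 CPM among PBS tumors. The log2 fold change was 0.21 ± 0.19 (SE), with an edgeR adjusted p of 0.819. It was 0.12 with PBS tumor 3 left out and 0.14 with GB2 tumor 1 left out. Permuting the group labels exactly (two-sided) gave p = 0.1, below which 3 against 3 tumors cannot go. On the FPKM scale, which corrects for transcript length, the groups did not overlap either, at 8.80 ± 0.897 in PBS and 10.7 ± 1.07 in GB2 tumors (SD, n = 3).

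Nfkbiz (ENSMUSG00000035356) encodes inhibitor of kappa B zeta, an atypical nuclear member that regulates transcription of secondary response genes. It lies on chromosome 16 from 55631738 to 55659262 (minus strand). The PBS tumors had 23.3, 29.4 and 26.1 CPM and the GB2 tumors 21.1, 22.3 and 21.4 CPM. Every GB2 tumor was below every PBS tumor in CPM. On the FPKM scale the groups overlapped, since PBS tumor 1 was at 3.98 and the GB2 tumors were between 4.18 and 4.23. The log2 fold change was -0.28 ± 0.17 (SE), with an edgeR adjusted p of 0.761 and an exact two-sided permutation p of 0.1. With PBS tumor 1 left out, edgeR gave Nfkbiz an unadjusted p of 0.040 and an adjusted p of 0.518. It was the single member under an unadjusted 0.05 in that fit, where 9.02% of all genes tested were.

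The groups thus did not overlap in CPM for 2 members, 1 higher and 1 lower in GB2 tumors. Among all genes tested 15.3% had groups that did not overlap, with 8.61% higher and 6.68% lower in GB2 tumors. A count of 2 among 10 genes is close to that share.

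Nfkbib (ENSMUSG00000030595) encodes inhibitor of kappa B beta, which is not strongly induced by NF-kappa B, and lies on chromosome 7 from 28457676 to 28466065 (minus strand). Its values were 56.1, 38.9 and 40.1 CPM in the PBS tumors and 33.6, 38.4 and 39.5 CPM in the GB2 tumors. PBS tumor 1 stood above the rest. Its log2 fold change of -0.28 ± 0.20 (SE) moved to -0.07 without that tumor.

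Nfkbie (ENSMUSG00000023947) encodes inhibitor of kappa B epsilon, another cytoplasmic inhibitor, and lies on chromosome 17 from 45866629 to 45874095 (plus strand). It measured 8.10, 13.0 and 16.5 CPM in the PBS tumors, and 15.8, 13.1 and 11.6 CPM in the GB2 tumors. The PBS tumors held both extremes. Nfkbie had a log2 fold change of 0.11 ± 0.30 (SE). Its sign turned with PBS tumor 1 left out (-0.11) or GB2 tumor 1 left out (-0.02), and it was 0.36 with PBS tumor 3 left out.

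Tnfaip3 (ENSMUSG00000019850) encodes A20, a ubiquitin-editing enzyme that shuts off signaling upstream of IKK, and lies on chromosome 10 from 18876658 to 18891158 (minus strand). The PBS tumors had 4.43, 8.40 and 9.27 CPM, and the GB2 tumors 8.67, 8.62 and 8.16 CPM. PBS tumor 1 was far below the rest, PBS tumor 2 lay within the range of the GB2 tumors and PBS tumor 3 above it. The log2 fold change of 0.20 ± 0.31 (SE) turned to -0.045 when PBS tumor 1 was left out, and leaving out PBS tumor 2 or 3 gave 0.31 and 0.41.

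**Figure D3:**
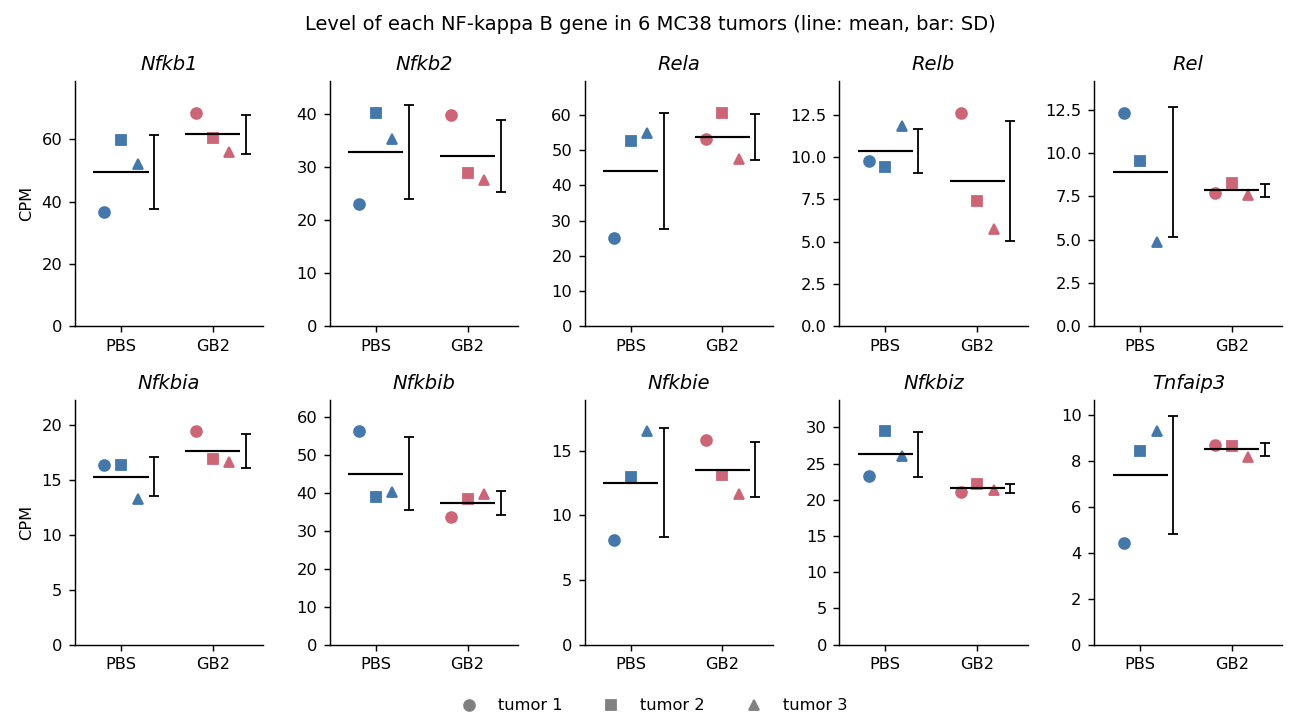
CPM of the 10 members in each tumor, with 1 panel per gene, axes from 0, symbols for tumors 1, 2 and 3 of each group, a line for the mean and a bar for the SD. PBS tumor 1 is the lowest tumor in Nfkb1, Nfkb2, Rela, Nfkbie and Tnfaip3, and the groups are apart only in Nfkbia and Nfkbiz.

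PBS tumor 1 moved together with many of these values. It was the lowest of the 6 tumors for 5 members and the highest for 2 (Rel and Nfkbib). Among all genes tested it was the lowest in 31.8% and the highest in 31.8%, so this tumor stood apart across the transcriptome and not only in these genes. Without it, 4 members had a higher and 6 a lower fitted level in GB2 tumors, and the median log2 fold change of the members was -0.06. Across the 6 fits that leave out 1 tumor, the members' adjusted p values from edgeR ran from 0.494 to 0.998. Nfkb1, Rela and Nfkbia stayed higher, and Relb, Nfkbib and Nfkbiz stayed lower, in every one of these fits.

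**Figure D4:**
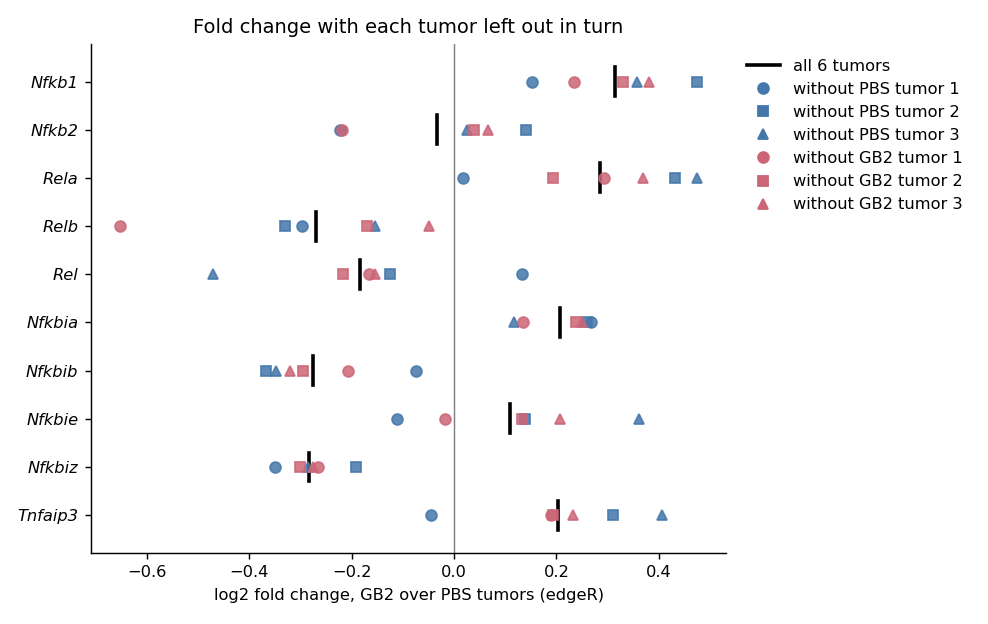
Log2 fold change of each member in GB2 over PBS tumors from edgeR with all 6 tumors (black bar) and with each tumor left out (symbols). Leaving out PBS tumor 1 moves Rela to 0.017 and turns the sign of Rel, Nfkbie and Tnfaip3, and the sign of Nfkb2 changes with 4 of the tumors.

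The spread among tumors had a median coefficient of variation of 21.9% in CPM over the 6 tumors for the members, against 30.5% for all genes tested. The genes tested include genes close to the minimum count of 10, and no comparison at the members' own levels was made. Nfkbia (11.98%) and Nfkbiz (13.5%) varied least among the members, and Relb (27.4%) and Rel (29.4%) varied most. Within the GB2 group, the SD was 0.28 CPM for Tnfaip3, 0.39 for Rel and 0.59 for Nfkbiz, against 2.58, 3.76 and 3.07 CPM in the PBS group. The PBS value for Tnfaip3 rested on PBS tumor 1, at 4.43 CPM against 8.40 and 9.27 CPM in the others. For Nfkbia the SDs were closer, at 1.53 CPM in GB2 and 1.80 CPM in PBS tumors. Relb alone went the other way, with an SD of 3.58 CPM in GB2 and 1.32 CPM in PBS tumors. These differences in spread were not tested.

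Levels of different genes were compared as FPKM, averaged over the 6 tumors with the SD. Nfkbib was the highest at 17.95 ± 2.27 FPKM, followed by Rela at 15.4 ± 4.27, Nfkbia at 9.78 ± 1.38 and Nfkb2 at 6.80 ± 1.68. Nfkbiz (4.55 ± 0.650), Nfkb1 (4.43 ± 1.013) and Nfkbie (4.11 ± 1.09) formed a middle group. Relb was at 2.32 ± 0.670 FPKM, Rel at 1.06 ± 0.26 and Tnfaip3 at 1.05 ± 0.265. Neighbors in this order were ranked the same way in all 6 tumors for Nfkbia over Nfkb2, Nfkb2 over Nfkbiz, Nfkbie over Relb and Relb over Rel. The order of the other neighbors was not the same in every tumor. Rela exceeded Nfkbia in 5 of 6 tumors, with a mean log2 ratio of 0.60 ± 0.50 (SD), and Nfkb1 exceeded Nfkbie in 5 of 6. Nfkbib exceeded Rela in all 3 PBS tumors (mean 19.1 against 13.6 FPKM) but in 1 of 3 GB2 tumors (16.8 against 17.1 FPKM). Nfkbiz exceeded Nfkb1 in all 3 PBS tumors (mean 4.89 against 3.86 FPKM) but in no GB2 tumor (4.22 against 5.01 FPKM). Rel exceeded Tnfaip3 in 2 of 6 tumors, PBS tumors 1 and 2. These orders were not tested, and how often other pairs of genes part by group was not computed. Of all genes tested, taken singly, 15.3% had groups that did not overlap in CPM.

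The FPKM values of the subunits were also summed within each tumor. Rela made up 47.6% ± 6.77 of the subunit sum in PBS and 53.4% ± 4.91 in GB2 tumors (SD, n = 3), and Nfkb2 made up 24.3% ± 1.24 and 21.2% ± 2.83. The shares of Nfkb1 were 14.1% ± 1.06 and 15.6% ± 0.765, those of Relb 9.46% ± 2.67 and 6.57% ± 2.11, and those of Rel 4.59% ± 3.18 and 3.22% ± 0.337. The subunit sum itself ran from 17.4 to 33.2 FPKM in PBS tumors, with the low end in PBS tumor 1, and from 28.4 to 35.8 FPKM in GB2 tumors. The sum over the 5 inhibitors was 37.5 to 37.9 FPKM in PBS and 36.4 to 37.9 FPKM in GB2 tumors, so that the groups overlapped. In CPM the same sum was lower in every GB2 tumor, at 97.3 to 99.3 CPM against 105 to 108 CPM. Within the FPKM sum, Nfkbib made up 50.8% ± 7.12 in PBS and 45.1% ± 3.997 in GB2 tumors, and Nfkbia 23.4% ± 2.27 and 28.8% ± 2.40 (SD, n = 3). The share of Nfkbia was higher in every GB2 tumor, from 27.3% to 31.6%, than in any PBS tumor, from 21.3% to 25.8%. These sums and shares were described without a test, and a share depends on every other gene of the sum. How often other sums or shares part by group was not computed, while 15.3% of single genes tested did so in CPM.

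Likeness between genes was measured as the root mean square difference of log2 CPM, each gene centred on its own mean, over the 6 tumors. Rela and Tnfaip3 were the most alike pair of members, with a difference of 0.10, and Nfkbie was nearest to Tnfaip3 at 0.14. Of 14236 other genes with a mean of at least 1 CPM, 120 were as near to Rela as Tnfaip3 was. The nearest gene outside the family was Usp19 for Rela (0.023), Zfp275 for Nfkb1 (0.021) and Lipe for Nfkbia (0.028). These values describe 6 tumors, of which PBS tumor 1 stands apart, and with so many genes close neighbors are frequent.

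Relatives of the inhibitors that were not on the list were examined next. Nfkbil1, an inhibitor-like gene in the major histocompatibility region, measured 35.5, 19.2 and 19.4 CPM in the PBS tumors and 15.3, 14.0 and 16.6 CPM in the GB2 tumors. Every GB2 tumor was lower, with PBS tumor 1 far above the others. Its log2 fold change was -0.69 ± 0.28 (SE) with an edgeR unadjusted p of 0.041 and an adjusted p of 0.699. Of all genes tested 2.24% were lower at an unadjusted p under 0.05. No gene of this list of 3 was under it in either limma fit, with the replicate block, or with PBS tumor 1 or any 1 of the GB2 tumors left out. Bcl3, an atypical nuclear member that binds p50 and p52, had a log2 fold change of 0.12 ± 0.28 (SE). Nfkbid reached the count filter in all 3 tumors of the GB2 group only, at 3, 42 and 3 counts in PBS and 77, 46 and 55 counts in GB2 tumors.

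Upstream of the members, genes for activating ligands and receptors had mostly higher values in GB2 tumors. Of 20 listed genes 17 were tested, with 16 higher and 1 lower in GB2 tumors and a median log2 fold change of 0.76. In limma, whose filter kept 9 of these genes, the median was 0.34 on log2(FPKM + 1) and 0.53 on log2(FPKM + 0.1). By edgeR none was called, whereas DESeq2 called 3 (Cd40, Il1b and Tnfrsf1b) of the 17, against 1.96% of all genes. An unadjusted p under 0.05 from edgeR was found for 7 genes, all higher, where 4.69% of all genes tested were higher at that limit. These counts are no support for a change of the list, since 4 of the 17 genes (Cd40, Tlr9, Tnfsf11 and Tnfsf13b) reached the count filter in all 3 tumors of the GB2 group only and so favor the higher side. Among the 7 were 2 of these, Cd40 and Tnfsf11. Il1b, which encodes interleukin-1 beta, measured 1.47, 1.72 and 0.75 CPM in the PBS tumors and 6.05, 5.19 and 4.55 CPM in the GB2 tumors. The groups were far apart, with a log2 fold change of 2.00 ± 0.38 (SE) and an edgeR adjusted p of 0.207. Tnfrsf1b, which encodes TNF receptor 2, was at 2.46 ± 0.544 CPM in PBS and 6.87 ± 1.61 CPM in GB2 tumors (SD, n = 3), with an edgeR adjusted p of 0.234. Il1a (log2 fold change 1.81) and Tnfrsf11a, which encodes RANK (1.37), had adjusted p values of 0.397 and 0.695 from edgeR. Cd40 and Tnfsf11, which encodes RANKL, rested on few reads in the PBS tumors, at 8, 5 and 15 counts for Cd40 and 4, 0 and 7 counts for Tnfsf11. In the GB2 tumors they had 60, 49 and 159 counts and 42, 31 and 47 counts. Tnf itself had a log2 fold change of 0.62 ± 0.59 (SE) from levels of 0.15 to 0.67 CPM, and was looked up after the values were seen.

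Kinases and adaptors carry the signal from receptors to the inhibitors. All 28 listed genes were tested, 21 higher and 7 lower in GB2 tumors, with a median log2 fold change of 0.08. Among all genes tested 48.3% were higher. The 1 gene of the 28 with an unadjusted p under 0.05, against 6.94% of all genes, was Birc3, which encodes the ubiquitin ligase cIAP2 and is also an NF-kappa B target. It measured 2.198, 2.55 and 1.67 CPM in PBS and 4.53, 4.06 and 3.53 CPM in GB2 tumors, a log2 fold change of 0.92 ± 0.29 (SE) with an edgeR adjusted p of 0.525. Tab1, an activator of the kinase TAK1, had a log2 fold change of 0.39 ± 0.32 (SE), and Ripk1, a kinase of the TNF receptor complex, 0.28 ± 0.24 (SE). For 22 of the 28 genes the 95% interval stayed within 2-fold. The share was 42.1% over all genes tested, which were not matched to this list in level.

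Among 10 further negative regulators, 5 were higher and 5 lower in GB2 tumors, with a median log2 fold change of 0.03, and none had an unadjusted p under 0.05. Without GB2 tumor 3 there was 1. Tnip1, which encodes a partner of A20, had a log2 fold change of 0.45 ± 0.27 (SE), the ubiquitin ligase gene Itch 0.24 ± 0.18 (SE) and Rnf11 -0.21 ± 0.18 (SE).

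Of 32 listed NF-kappa B target genes 29 were tested, 24 higher and 5 lower in GB2 tumors. Among all genes tested 48.3% were higher. None was called by edgeR, whereas DESeq2 called 3 (Cxcl2, Mmp9 and Vcam1) of the 29, against 1.96% of all genes. The median log2 fold change was 0.60. With 1 tumor left out it ran from 0.51 without PBS tumor 3 to 0.93 without PBS tumor 2. In limma, whose filter kept 22 of these genes, it was 0.34 on log2(FPKM + 1) and 0.50 on log2(FPKM + 0.1). An unadjusted p under 0.05 was reached by 7 higher genes and by 1 lower gene, against 4.69% and 2.24% of all genes tested. Mmp9, which encodes a gelatinase of neutrophils and macrophages, measured 3.31, 1.32 and 2.14 CPM in the PBS tumors and 9.48, 12.4 and 11.8 CPM in the GB2 tumors. The groups were far apart, with a log2 fold change of 2.32 ± 0.37 (SE) and an edgeR adjusted p of 0.186. The other higher genes were Cxcl2, a neutrophil chemokine (log2 fold change 1.99), the adhesion molecule gene Vcam1 (1.64), the nitric oxide synthase gene Nos2 (1.54), Il6 (1.44), the cyclooxygenase gene Ptgs2 (1.39) and the dendritic cell activation gene Cd83 (1.30). Their adjusted p values from edgeR lay between 0.322 and 0.704. The lower gene was Ccl5, a T cell chemokine, at 2.86 ± 0.823 CPM in PBS and 1.54 ± 0.035 CPM in GB2 tumors (SD, n = 3; log2 fold change -0.89, edgeR adjusted p 0.625), and it was named after its value was seen. The count of 8 rested on single tumors. Leaving out GB2 tumor 1, 2 or 3 gave 4, 3 and 5 genes, and leaving out PBS tumor 1, 2 or 3 gave 10, 5 and 5 genes. Of the 29 genes, 4 reached the count filter in all 3 tumors of the GB2 group only, none of them among the 7 higher genes. These 4 favor the higher side in the count of 24 and in the median, which are thus no support for a change of the list.

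**Figure D5:**
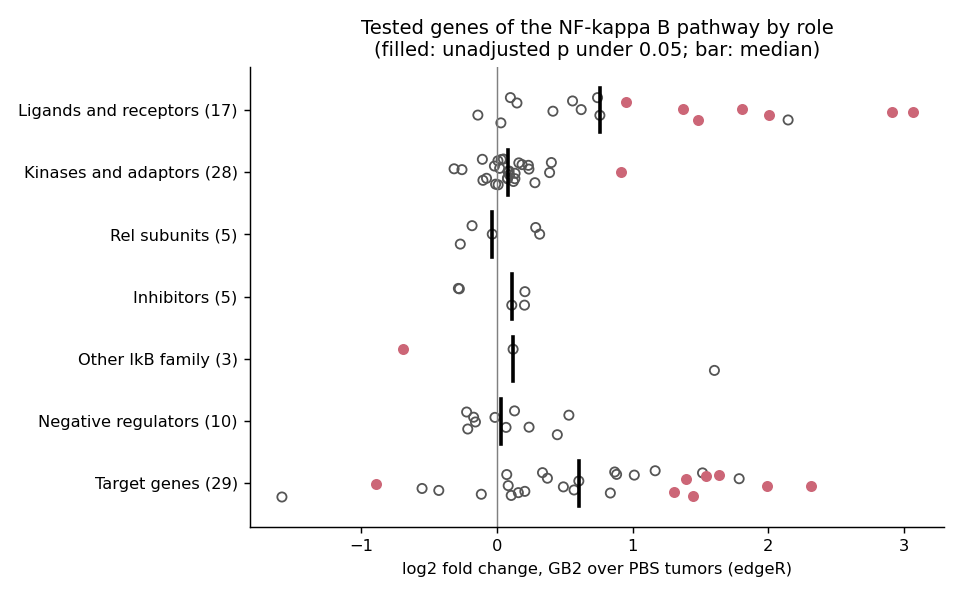
Log2 fold changes in GB2 over PBS tumors from edgeR for the tested genes of each role in the NF-kappa B pathway, with the number of genes in parentheses, the median as a bar and an unadjusted p under 0.05 as a filled point. The medians are 0.76 for ligands and receptors and 0.60 for target genes, and between -0.03 and 0.12 for the other groups.

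The deposited table itself annotates 6 of the members to the KEGG term for NF-kappa B signaling, together with 98 other genes. This set was added once the table had been read. Of the 88 others that were tested, 70 were higher and 18 lower in GB2 tumors, with a median log2 fold change of 0.35, and 22 had an unadjusted p under 0.05 by edgeR, all of them higher. Over all genes tested, 48.3% were higher in GB2 tumors and 4.69% were higher at that unadjusted limit. Of the 88 genes, 6 reached the count filter in all 3 tumors of the GB2 group only, 2 of them among the 22. These 6 favor the higher side, so the counts are no support for a change of the set. None was called by edgeR. DESeq2 called 10 of the 88, against 1.96% of all genes, and Cd40 among the 10 is one of those 6 genes.

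Markers of other cell types were also compared, and edgeR called none. DESeq2 called 6 of the 8 macrophage, 4 of the 5 fibroblast and 3 of the 5 endothelial markers, 3 neutrophil markers and 1 dendritic cell marker, where it called 1.96% of all genes. Of these, Cxcr2 reached the count filter in all 3 tumors of the GB2 group only. Groups that did not overlap, with GB2 higher, were found for 8.61% of all genes tested. All 8 macrophage markers were higher in every GB2 tumor, with a summed level of 61.8 to 86.9 CPM in PBS and 245 to 343 CPM in GB2 tumors. All 5 fibroblast markers were higher in every GB2 tumor, at 189 to 358 CPM against 605 to 849 CPM. Of 5 endothelial markers 4 were higher in every GB2 tumor. The other, Vwf, had a log2 fold change of -0.48 ± 0.37 (SE) from edgeR, with groups that overlapped. All 5 together summed to 43.5 to 61.5 CPM in PBS and 97.6 to 111 CPM in GB2 tumors. Of 6 neutrophil markers 4 were higher in every GB2 tumor (2.07 to 4.44 CPM against 9.14 to 12.02 CPM), with the neutrophil marker Ly6g at 0 counts in all tumors. Cxcr2 was 1 of these 4. Skeletal muscle markers were higher in every GB2 tumor for 3 of 4 genes, at 68.8 to 121 CPM against 123 to 166 CPM. Dendritic cell markers were so for 2 of 6 genes, Itgax and Ccr7, of which Ccr7 passed that filter only through the GB2 tumors. The whole list summed to 8.23 to 10.7 CPM against 13.9 to 16.4 CPM. T cell markers were low in both groups, at 0.368 to 5.29 CPM in PBS and 0.643 to 3.26 CPM in GB2 tumors. B cell markers summed to at most 1.32 CPM and NK and cytotoxic cell markers to at most 3.32 CPM. Adipocyte markers summed to 15.9 to 63.2 CPM and 56.1 to 78.4 CPM, and keratinocyte markers to 19.0 to 80.6 CPM and 64.3 to 113 CPM. Of the 3 epithelial markers tested, Epcam was higher in every GB2 tumor, at 27, 16 and 12 counts in PBS and 64, 73 and 86 counts in GB2 tumors. The part of these cell types in the values of the members, their ligands and their targets was not tested. In bulk tissue, fewer cells of a type and less RNA per cell cannot be told apart.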

How the data were processed

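RNA of 6 MC38 tumors, 3 PBS-treated and 3 GB2-treated, was sequenced from poly-A selected, dUTP-stranded, paired-end libraries. The authors deposited 1 table with estimated counts and FPKM values per gene and tumor. In the deposited table the estimated counts carry no scaling between tumors and are integers. Their low values pile up at 4 (7017 values of 4, against 2984 of 3 and 2017 of 5). The deposited FPKM values correct for both transcript length and depth. The submitters' processing notes name cutadapt 1.9, HISAT2 2.2.1, StringTie 2.1.6, DESeq2, edgeR and the build mm10. None of the 10 members starts within 1000 bases of its GRCm38.p6 position, so the positions printed for genes are those of the table on a build that is not given, while promoter coordinates are RefSeq GRCm38.p6.

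The test was that of edgeR 4.0.16 (R 4.3.3), with filterByExpr with a minimum count of 10, TMM scaling (factors 0.914 to 1.04), glmQLFit and glmQLFTest, and Benjamini-Hochberg adjustment over 19602 genes. CPM use the TMM library sizes, and log2 CPM a prior count of 2. Standard errors and 95% intervals come from the test statistic. The alternatives used DESeq2 1.42.0 and limma 3.58.1, the latter on log2(FPKM + 1) or log2(FPKM + 0.1) for genes with at least 0.5 FPKM in 3 tumors. The scripts were tested on simulated data. Named genes were the 10 members and, of each other pathway list, the 3 with the smallest p. Any other gene that changed 2-fold or more at an unadjusted p below 0.05 was also named. Tnf and Ccl5 were named outside this rule after their values were seen, and Tlr9 and Tnfsf13b only for the count filter. Alternatives were other scalings, no count filter, counts divided by 4, a replicate block and each tumor left out. The division by 4 was run with edgeR only, so every DESeq2 call rests on undivided counts. The members and lists were chosen with earlier results of these data known. Intervals cover the spread between tumors, and no sequencing batch is given.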

Additional observations from a re-analysis of the deposited data

How the results depend on the processing

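The members' log2 fold changes, the numbers of genes called and the numbers under an unadjusted p of 0.05 in the pathway lists were recomputed under 14 alternatives, 6 of which leave out 1 tumor. For the KEGG set and the markers only the DESeq2 calls were added. Marker sums, FPKM shares, level order, variation and likeness were not recomputed. Of 140 refitted log2 fold changes of members, 129 kept their direction and 11 reversed, and none passed the adjusted limit. The 6 members without a reversal were Nfkb1, Rela, Relb, Nfkbia, Nfkbib and Nfkbiz. Nfkb2 reversed to 0.013 with library sizes only, 0.049 in limma on log2(FPKM + 1) and 0.061 with a pseudocount of 0.1. With 1 tumor left out, the log2 fold change ran from -0.22 to 0.14 for Nfkb2, from -0.47 to 0.13 for Rel, from -0.11 to 0.36 for Nfkbie and from -0.045 to 0.41 for Tnfaip3. With 1 tumor left out, the number of genes with an unadjusted p under 0.05 ran from 0 to 1 for the members and from 0 to 2 for the other inhibitor relatives. It ran from 5 to 7 for ligands and receptors, from 0 to 1 for kinases and adaptors, from 0 to 1 for negative regulators and from 3 to 10 for target genes. For ligands and receptors it was 3 in both limma fits, which kept 9 of these genes. For the inhibitor relatives it was 0 in both limma fits and with the replicate block. DESeq2 called 385 genes of all tested, against 0 by edgeR. The causes of these differences were not tested.

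The numbers in the labels give no pairing of tumors. Across genes, the deviations of equally numbered tumors had correlations of 0.03, 0.15 and -0.24, and not every tumor was closest to its own number. A fit with the number as a replicate block called 0 genes, as the fit without it did. Under the replicate block the members' log2 fold changes ran from -0.34 for Relb to 0.36 for Rela. With 3 tumors per group, the precision is that of the intervals given for each member.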
